A study of Mus musculus with 2 samples.

Results

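Chromatin at 10 named myelin and oligodendrocyte genes was described: Mbp, Mog, Mag, Mobp, Cnp, Myrf, Fa2h, Aspa, Cldn11 and Ugt8a. They were taken as a named list, with no threshold on any measured value, and are 10 of the 21951 protein-coding genes annotated in GENCODE M21, with 48 of the 93526 distinct annotated transcription starts. Many of these starts lie close together, and joined wherever they lay within 1000 bp of each other they made 20 start groups, so neighbouring starts share peaks and are not independent. DNase-seq, which cuts accessible chromatin with the nuclease DNase I and sequences the ends, had been run on hippocampal tissue of female B6CASTF1/J mice, first-generation hybrids of a laboratory strain with CAST, which derives from wild mice, aged 25 days. The labels call the tissue a layer of the hippocampus without saying which, and give 2 libraries, biological replicates 1 and 2 of a single group. Both carry the same donor entry, and whether they came from separate animals is not stated, so differences between them may partly be technical. With 1 group there was no contrast to test, and counts are set beside the share of all protein-coding starts or genes scored the same way.

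Oligodendrocytes wrap axons of the central nervous system in myelin, a compacted stack of membrane rich in cholesterol and galactolipids. Precursor cells leave the cell cycle under OLIG and SOX transcription factors, and Myrf then drives the myelin genes of the maturing cell. In rodents, myelin is laid down over the weeks after birth, and in the hippocampus oligodendrocytes are a minority among neurons and astrocytes. The genes fall into structural and adhesion proteins of the sheath (Mbp, Mobp, Mog, Mag, Cldn11), enzymes of the sheath and its lipids (Cnp, Fa2h, Ugt8a, Aspa) and the transcription factor Myrf. In bulk tissue, fewer nuclei of a cell type and less accessible chromatin per nucleus cannot be told apart.

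The files gave, for each library, a strict and a longer peak list, footprints (short stretches protected from cutting inside open chromatin) and the false discovery rate (FDR) of the cut rate along the genome. Every strict peak holds a base at an FDR of 0.001 or less, and every longer-list peak a base at 0.05 or less. Replicate 1 had 61466 strict peaks, 104506 in the longer list and 236942 footprints, and replicate 2 had 50379, 91751 and 159538. The median strict signal, in the deposited unit whose scaling is not stated, was 1.44 in replicate 1 and 0.803 in replicate 2, so levels are compared within a library. Depth is unknown, because no tag counts were used here. The tissue label was set against marker lists: a start was open in both libraries for 6 of 10 excitatory neuron markers, 5 of 8 oligodendrocyte precursor markers, 3 of 6 genes of Schwann cells, the myelin-forming cells of peripheral nerve, 2 of 10 astrocyte markers, 2 of 10 microglial markers and 0 of 6 endothelial markers, against 54.0% of all protein-coding genes.

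The promoters below show the range of sequence among the genes, from starts with open chromatin in both libraries to starts with none. They come from RefSeq (GRCm38.p6), which held 7 of the 10 genes by symbol and had no entry for Mbp, Myrf or Fa2h. Each is written 5′ to 3′ on the gene's strand and ends 30 bases or fewer past the most upstream start, and capitals mark bases inside a footprint of either library. For Ugt8a that is the RefSeq start, chr3:125938652. Its printed bases therefore end just before the GENCODE start Ugt8a-201 (chr3:125938619), from which its distances are given below.
Cnp, chr11:100574689-100574933, plus strand: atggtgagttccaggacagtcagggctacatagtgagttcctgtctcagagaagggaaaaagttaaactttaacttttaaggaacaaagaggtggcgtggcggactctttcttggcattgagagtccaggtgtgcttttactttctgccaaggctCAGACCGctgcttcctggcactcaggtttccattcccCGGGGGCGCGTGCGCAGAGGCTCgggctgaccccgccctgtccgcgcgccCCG
Cldn11, chr3:31149670-31149949, plus strand: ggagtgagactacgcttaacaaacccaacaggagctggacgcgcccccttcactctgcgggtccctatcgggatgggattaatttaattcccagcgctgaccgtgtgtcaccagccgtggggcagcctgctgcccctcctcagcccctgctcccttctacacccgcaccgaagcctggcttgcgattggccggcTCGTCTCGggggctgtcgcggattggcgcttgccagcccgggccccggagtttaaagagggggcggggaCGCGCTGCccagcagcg
Ugt8a, chr3:125938623-125938902, minus strand: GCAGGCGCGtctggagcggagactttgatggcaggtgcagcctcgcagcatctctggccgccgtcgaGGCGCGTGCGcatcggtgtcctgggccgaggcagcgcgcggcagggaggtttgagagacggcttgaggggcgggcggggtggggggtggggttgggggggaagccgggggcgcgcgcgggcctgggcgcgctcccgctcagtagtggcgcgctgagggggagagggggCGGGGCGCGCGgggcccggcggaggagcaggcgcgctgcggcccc
Mog, chr17:37023369-37023648, minus strand: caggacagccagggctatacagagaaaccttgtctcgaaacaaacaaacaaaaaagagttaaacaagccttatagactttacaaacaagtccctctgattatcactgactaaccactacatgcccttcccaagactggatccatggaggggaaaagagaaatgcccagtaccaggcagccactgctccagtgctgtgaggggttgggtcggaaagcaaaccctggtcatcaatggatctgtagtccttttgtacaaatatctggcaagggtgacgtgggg
Mobp, chr9:120149492-120149736, plus strand: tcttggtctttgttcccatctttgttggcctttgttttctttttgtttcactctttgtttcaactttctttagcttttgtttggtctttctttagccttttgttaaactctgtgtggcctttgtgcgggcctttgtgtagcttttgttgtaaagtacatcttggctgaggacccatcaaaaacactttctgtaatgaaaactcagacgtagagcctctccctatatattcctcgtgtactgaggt

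The Cnp, Cldn11 and Ugt8a promoters hold 13, 23 and 37 CG sites and footprint bases, whereas those of Mog and Mobp hold 3 each and no footprint base. The Mobp promoter carries the letters ACAAAG, a core recognised by SOX factors, 6 times on the opposite strand within 208 bp upstream of its most upstream start. The 280 bases of Ugt8a are 77.9% G and C, against 39.6% in the 245 bases of Mobp. The Cnp promoter holds CTGGCAC, a core bound by MYRF, 46 bp before the start and outside its footprints. Such matches describe letters and are not evidence that a factor is bound.

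Of the 10 genes, 3 had an open start in both libraries, Myrf, Cnp and Fa2h, against 54.0% of all protein-coding genes. A start was called open when a strict peak of each library overlapped the 500 bp on either side of it. By that rule 7 of the 48 starts were open (3 of Myrf, 2 of Cnp and 2 of Fa2h, in 3 start groups), against 42.8% of all starts. In replicate 1 alone, strict peaks stood at 23 starts of 6 genes, and Mbp, Cldn11 and Ugt8a joined the 3 genes, against 48.1% of all starts and 60.2% of all genes. In replicate 2 alone there were 7 starts and 3 genes, against 43.4% and 54.7%. The members' share thus lay close to the background in replicate 1 and below it in replicate 2. A strict start peak in replicate 1 with none in replicate 2 was found for 3 of the 10 genes and for 6.00% of all genes, and the reverse for 0 of the 10 and for 0.565%. All 3 of those genes recurred at lower stringency in replicate 2, in its longer list, as did 65.2% of all genes with a strict start peak in replicate 1 only. With the longer lists, 19 starts and 6 genes were open in both libraries, against 47.8% of starts and 59.6% of genes. The longer list of replicate 1 alone had peaks at 25 starts of 7 genes, with Mog added, against 52.6% and 64.9%, and that of replicate 2 alone at 19 starts of 6 genes, against 48.6% and 60.4%. No start peak in any of the 4 lists was found for Mag, Mobp and Aspa, as for 34.5% of all genes.

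**Figure D1:**
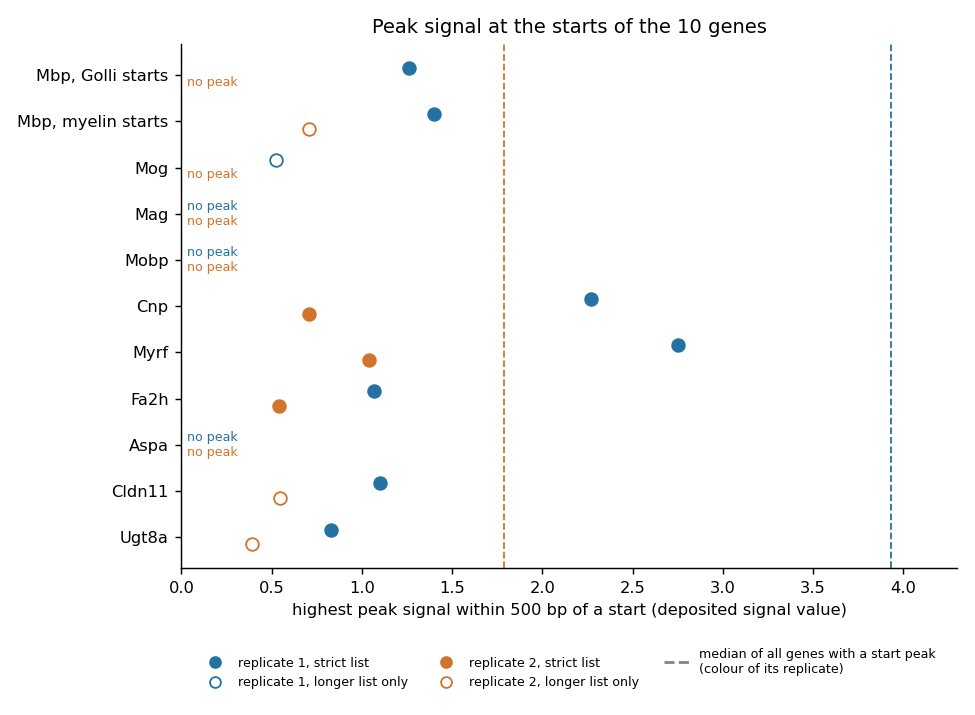
Highest peak signal within 500 bp of a start (x axis, deposited signal value) for each gene, with the Golli and myelin starts of Mbp apart, in replicate 1 (blue) and replicate 2 (orange). Filled points are strict peaks and open points are peaks of the longer list only, and dashed lines mark the medians of all genes with a start peak (3.93 and 1.79), which lie to the right of every point of their own library.

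Every start peak of the genes was weaker than the median start peak of its library. Among the 13206 genes with a strict start peak in replicate 1 the median of the highest signal was 3.93 (interquartile range 2.13 to 5.95), and the 6 members ranged from 0.831 to 2.75 with a median of 1.25. Among the 12014 such genes in replicate 2 the median was 1.79 (1.14 to 2.48), and the 3 members had 0.54, 0.705 and 1.04. In both libraries Myrf was highest, and in replicate 1 the order went on with Cnp, Mbp, Cldn11, Fa2h and Ugt8a. With the longer-list peaks of replicate 2 the order was the same, except that Cnp and Mbp both stood at 0.705. Cldn11 and Fa2h were neighbours in both libraries and close, at 1.1 and 1.07 in replicate 1 and 0.548 and 0.54 in replicate 2. Each of these 6 genes was higher in replicate 1, as was the general level of that library, so no spread of a gene about its own level could be estimated.

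Myrf, the transcription factor that switches on the myelin programme, had the strongest start of the 10. Its peak signal at the main start (Myrf-201, chr19:10240748, minus strand) was 2.75 in replicate 1 and 1.04 in replicate 2, at the 33.7th and 21.7th percentiles of genes with a start peak. The peaks lay from 172 bp upstream to 27 bp downstream in replicate 1 and from 148 bp upstream to 47 bp downstream in replicate 2. The lowest FDR was 1.38e-23 in replicate 1, 73 bp upstream, and 3.59e-08 in replicate 2, 78 bp upstream. Each library had 2 footprints there and both were shared, at 69 to 45 bp and 128 to 112 bp upstream in replicate 1. A footprint was counted as shared when those of the libraries overlapped by 50% of the shorter. The intragenic start Myrf-203 had no peak.

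Cnp encodes the cyclic nucleotide phosphodiesterase of the non-compacted, cytoplasm-containing parts of myelin. At its start (Cnp-201, chr11:100574904, plus strand) the signal was 2.27 in replicate 1 and 0.705 in replicate 2, at the 26.9th and 9.22th percentiles. Replicate 1 had 2 further strict peaks inside the gene, 237 to 576 bp downstream with 1.22 and 597 to 786 bp downstream with 1.11. Replicate 2 had no strict peak there, and a longer-list peak of 0.51 lay 677 to 783 bp downstream. The strict peak of replicate 2 was 78 bp wide, and its lowest FDR of 3.22e-04 lay just inside the threshold of 0.001, against 2.83e-14 in replicate 1. The internal start Cnp-204 lay 546 bp from that peak, outside the window, and a window of 1000 bp either side added 2 starts of Cnp and no gene. Of the 2 shared footprints, those of replicate 1 lay 23 to 1 bp upstream and 27 to 44 bp downstream, and the printed promoter holds the former whole and only the first bases of the latter.

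Fa2h, which hydroxylates the fatty acids of myelin galactolipids, had weak but similar starts in both libraries. Signal at its main start (Fa2h-201, chr8:111393824, minus strand) was 1.07 in replicate 1 and 0.54 in replicate 2, at the 8.74th and 4.14th percentiles. The lowest FDRs were 2.38e-08 and 2.64e-07, the closest pair among the reference starts listed in both libraries, and 293 and 273 bases lay at or under 0.001. Replicate 1 had 2 footprints in the window and replicate 2 had 4, and none was shared. The 2 other start groups of Fa2h, inside the gene, had no peak.

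Ugt8a, which adds galactose to ceramide to make the main glycolipid of myelin, missed the call in replicate 2 by its FDR. Replicate 1 had a strict peak of 0.831 across its start (Ugt8a-201, chr3:125938619, minus strand), from 121 bp upstream to 142 bp downstream. A further strict peak of 0.816 lay 307 to 142 bp upstream. Replicate 2 had a longer-list peak of 0.39 that lay 341 to 104 bp upstream. The lowest FDR was 5.00e-06 in replicate 1 and 0.00183 in replicate 2, which made it the gene just outside the threshold of 0.001. The 2 footprints of each library lay at different places.

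Aspa, which splits N-acetylaspartate and is mutated in Canavan disease, had no peak in any list at any of its 6 starts. The window of its start Aspa-206 also holds starts of Spata22 and Gm49340, and it too was empty. At Aspa-203 and Aspa-205 replicate 1 alone listed bases, with a lowest FDR of 0.042.

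Mbp encodes myelin basic protein, which holds the inner faces of the myelin membrane together, and an upstream start of the same gene on chromosome 18 makes the Golli proteins, which are also found in neurons and immune cells. The Golli and myelin starts are 79418 bp apart. Signal at the myelin starts was 1.4 in replicate 1, at the 14.2th percentile, with a peak of 63 bp lying 146 to 84 bp before Mbp-202, and replicate 2 had only a longer-list peak of 0.705. Signal at the Golli starts was 1.26 in replicate 1, and replicate 2 had no peak there in either list. The lowest FDR at the Golli start was 1.41e-06 in replicate 1 with 513 bases listed, and replicate 2 listed 0 bases. At the myelin start it was 2.72e-04 and 0.00839, with 276 and 179 bases listed. The Golli start thus had the lower FDR and wider stretch in replicate 1, and only the myelin start was listed in both libraries. A footprint 176 to 154 bp upstream of Mbp-202 in replicate 1 overlapped one of replicate 2 by 4 bp, and the letters CAGCTG, an E-box bound by OLIG factors, lay within 8 bp of it. Another start group, at Mbp-214 inside the gene, had no peak.

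Cldn11, the claudin of the tight junctions between myelin layers, has a single start (Cldn11-201, chr3:31149920, plus strand). Its signal was 1.1 in replicate 1 and 0.548 in the longer list of replicate 2, with lowest FDRs of 2.11e-05 and 0.00774 at nearly the same place, 16 bp downstream and 2 bp upstream. The 1 footprint of replicate 1 and the 2 of replicate 2 did not coincide.

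Mog, a glycoprotein of the outermost myelin surface, had only a longer-list peak of 0.522 in replicate 1, lying 41 to 168 bp downstream of Mog-201 (chr17:37023398, minus strand), with a lowest FDR of 0.0077. It had 2 footprints in replicate 1, past the end of the printed promoter, and nothing in replicate 2. Mag, the adhesion protein that faces the axon, and Mobp, a small basic protein of compact myelin, had no listed base at any of their 7 and 5 starts in either library. Their printed or annotated starts (Mag-201, chr7:30914327, minus strand; Mobp-201, chr9:120149707, plus strand) were thus without signal above the FDR limit of 0.05, which does not show that they were closed in every oligodendrocyte.

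**Figure D2:**
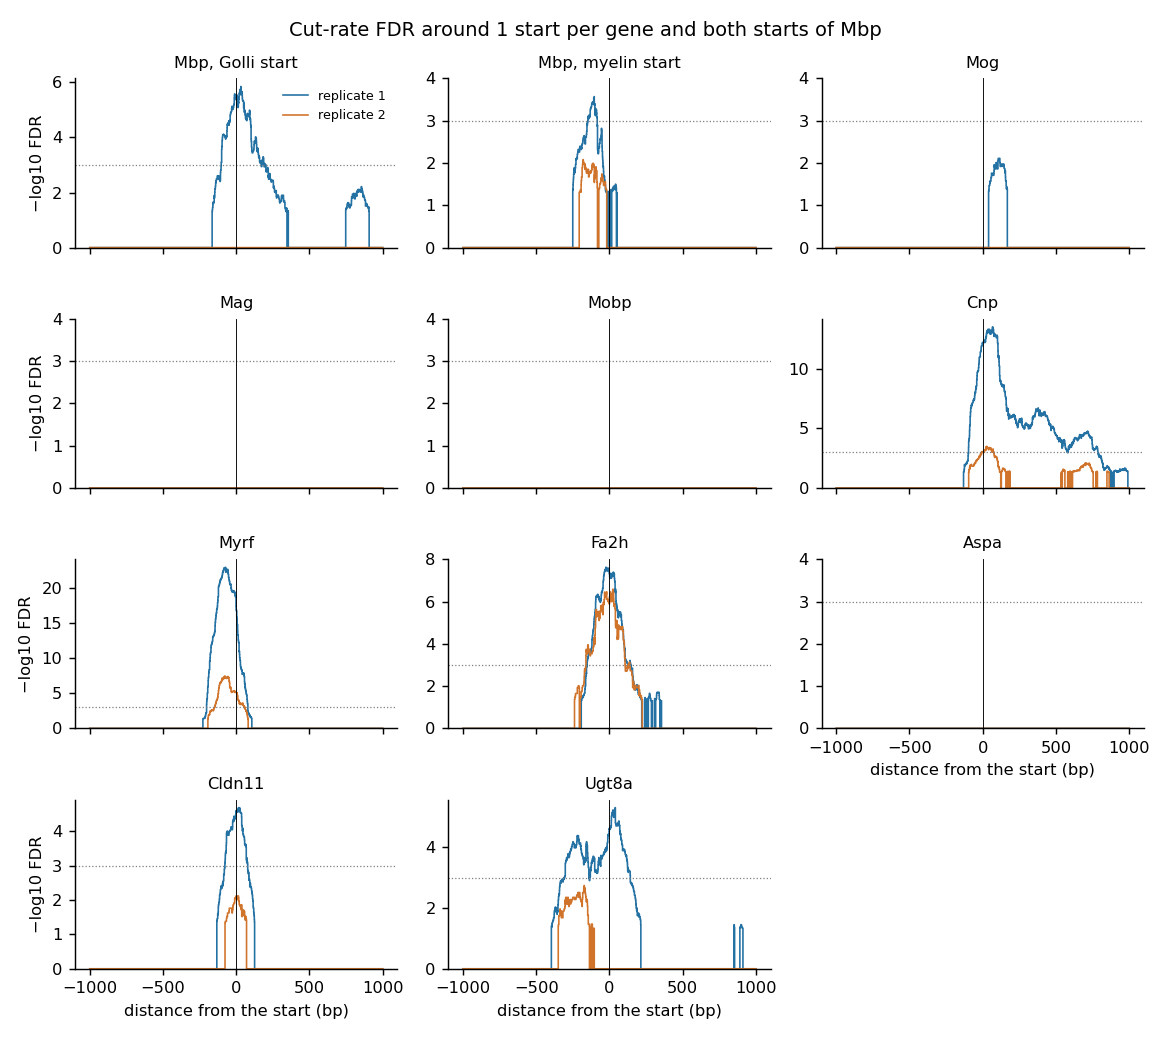
Cut-rate FDR as −log10 (y axis, a separate scale in each panel) against distance from 1 annotated start per gene and 2 of Mbp (x axis, bp, positive in the direction of transcription), in replicate 1 (blue) and replicate 2 (orange), with the dotted line at an FDR of 0.001. Bases not listed are drawn at 0. Mag, Mobp and Aspa are flat, Myrf, Cnp and Fa2h pass the line in both libraries, and the other starts pass it in replicate 1 alone, except Mog, which stays under it.

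Across the 48 starts, the FDR files gave counts that follow from those of the peaks, since a peak is called only where a base passes its FDR threshold. A base at an FDR of 0.001 or less in both libraries was found in 7 start windows, against 44.1% of all starts, and at 0.01 and at 0.05 in 19, against 46.9% and 49.2%. In 21 windows, which form 11 start groups, no base was listed in either library, as in 45.4% of all starts. Footprints of replicate 1 lay in 25 windows and those of replicate 2 in 19, against 50.6% and 45.4%. Shared footprints numbered 5, at Myrf, Cnp and the myelin starts of Mbp, and lay in 12 windows, against 38.1% of all starts. Of these 5, the letters GGGCGG, the GC box, lay within 8 bp of 2, GGAATG, bound by TEAD factors, of 1, CAGCTG of 1, and none of the searched letters of the remaining 1.

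Most start peaks lay at starts richer in CpG. The ratio of observed to expected CpG in 1000 bp was 0.73 at Myrf-201, 0.762 at Fa2h-201, 0.59 at Cnp-201, 0.592 at Cldn11-201 and 0.921 at Ugt8a-201. It was 0.147 at Mog-201, 0.214 at Mag-201, 0.32 at Mobp-201 and 0.188 at Aspa-201. Exceptions went both ways. The internal starts Cnp-202, with a ratio of 0.217, and Cnp-204, with 0.356, had a strict peak of replicate 1 in their windows. Aspa-205, Aspa-203 and Aspa-206 had higher ratios, of 0.368, 0.393 and 0.486, and no peak in any list. Mbp differed within itself, with 0.612 at the Golli start Mbp-201 and 0.469 at the myelin start Mbp-202. When all starts were split by this ratio into 5 groups of equal size, the share open in both libraries was 1.82%, 5.02%, 34.3%, 82.2% and 90.5% from the group with the lowest ratios to that with the highest. Of the members' starts, 0 of 13, 0 of 7, 1 of 15, 6 of 11 and 0 of 2 were open in both. In replicate 1 alone the shares of all starts were 3.05%, 8.11%, 43.9%, 89.6% and 95.8%, and the members had 0 of 13, 1 of 7, 9 of 15, 11 of 11 and 2 of 2. The members' starts followed the CpG ratio in replicate 1 much as all starts did. In both libraries together they fell short of it in the middle and upper groups. There Mbp (Golli and myelin), Cldn11, Ugt8a and Cnp-204 had strict peaks in replicate 1 and none in replicate 2. The groups hold overlapping starts of the same gene, so these counts are descriptive.

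**Figure D3:**
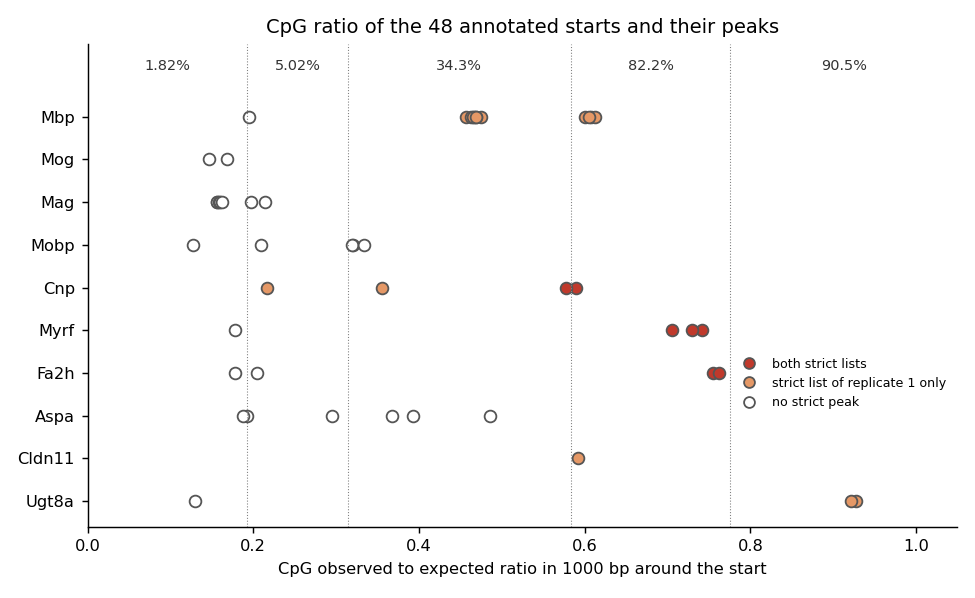
CpG observed to expected ratio of each of the 48 starts (x axis, 1000 bp around the start) by gene, filled red where strict peaks of both libraries lie within 500 bp, orange where only replicate 1 has one and white where neither has. Dotted lines part 5 equal groups of all starts, and the percentages above give the share of all starts open in both libraries, from 1.82% to 90.5%. All red points lie at 0.578 or above, and Ugt8a is orange in the highest group.

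Among motifs searched on both strands in the start windows, CTGGCAC occurred in 10 of the members' windows, of Mag, Cnp, Fa2h and Cldn11, against 16% of all start windows. CAGCTG occurred in 22 of the 48 against 42.4%, ACAAAG in 36 against 49.3% and its variant ACAATG in 19 against 30.8%. TATAAA, the TATA box, was in 17 against 31.7%, CCAAT in 35 against 69.2%, GGGCGG in 28 against 54.2% and GGAATG in 31 against 38.6%. TGANTCA, bound by AP-1, was in 2 (both of Aspa) against 19.7%, and neither TGACGTCA, the cyclic AMP response element, nor TTGGC followed 5 bases later by GCCAA, the paired site of NFI, was in any, against 2.85% and 0.0802%. Windows of neighbouring starts overlap, so a match near a cluster of starts counts several times.

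The surroundings are each gene body with 50 kb on either side, with a median span of 128 kb against 117 kb for all protein-coding genes. They held regions open in both libraries around most of the genes without an open start, but not around Ugt8a. Strict peaks of the libraries that overlapped each other were joined into shared regions, and 46 of these lay around the 10 genes. Their own starts took 3, starts of other genes 18, their own gene bodies 6, and sequence outside the gene body and away from any start 19. The 25 regions of the latter kinds together are called distal. Per gene there were 9 shared regions around Cnp and Myrf, 8 around Mobp, 5 around Mog and Mag, 4 around Fa2h, 3 around Mbp, 2 around Cldn11, 1 around Aspa and 0 around Ugt8a. The median was 4.5, against 4 for all protein-coding genes, and the median of distal regions was 2 against 1.

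**Figure D4:**
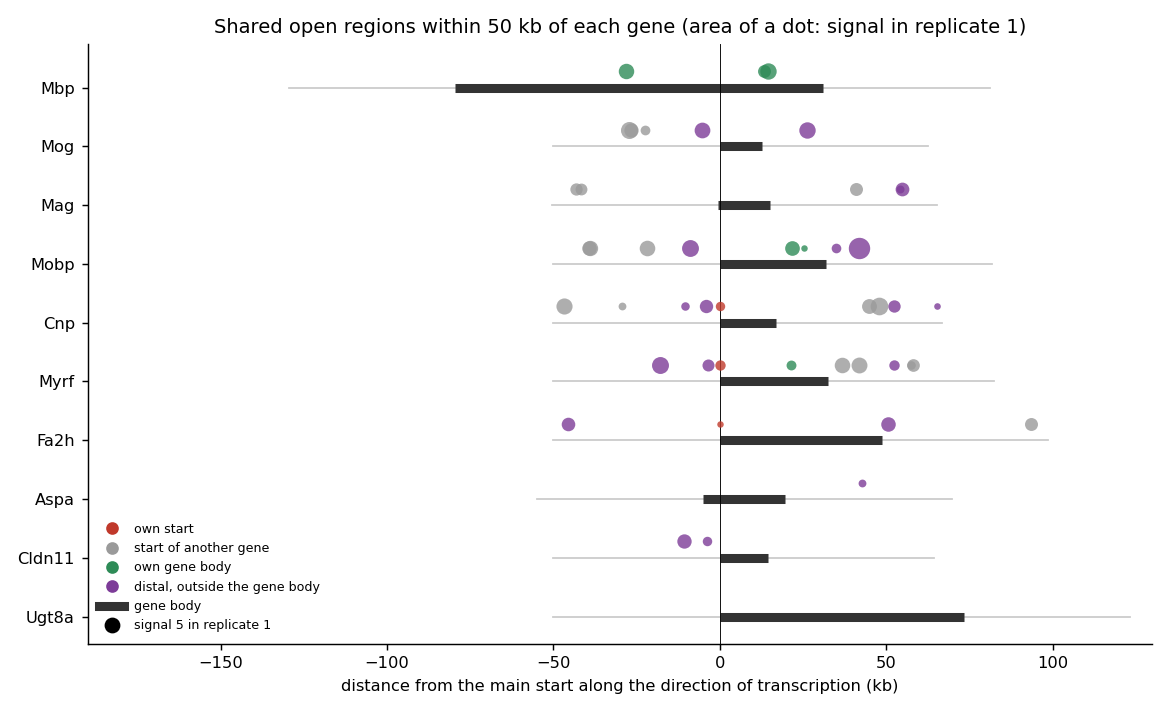
Shared open regions around the 10 genes by distance from the main start (x axis, kb, positive in the direction of transcription), with the gene body as a black bar and the 50 kb flanks as a grey line. Dots are coloured by class, and their area is proportional to the signal in replicate 1. The largest is the region downstream of Mobp with 11.7, and no region lies around Ugt8a.

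Of the 10 genes, 9 had a distal region, against 72.4% of all genes, and 3 (Mbp, Mobp and Myrf) had one in the gene body, against 25.7%. Of the 7 without an open start, 6 had a distal region, against 59.8% of all such genes. In replicate 1 the strongest distal region exceeded the highest start peak for all 9, against 69.0% of all genes with a distal region when a missing start peak counts as 0. Among those with a start peak it did so for 5 of 5, against 55.2%. The 25 distal regions had median signals of 4.57 in replicate 1 and 1.2 in replicate 2, against 1.98 and 0.855 over all 21904 distal regions. They exceeded the median of all distal regions in 20 of 25 cases in replicate 1 and in 21 of 25 in replicate 2. All 25 were higher in replicate 1, with a median log2 ratio of 1.82. Over all distal regions the median ratio was 1.22 and the lower quartile 0.61, so most of these were higher there too. Since the scaling of the signal is not stated, these ratios are not read as differences in accessibility. A shared footprint lay in 23 of the 25, against 81.1% of all distal regions.

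Mobp, whose own starts were without a listed base, had 5 distal regions, a number reached by 8.75% of all genes. The strongest of the 25, 10 kb past the end of Mobp inside the long noncoding RNA gene Gm38642, had a signal of 11.7 in replicate 1 and 2.29 in replicate 2. The region 8.77 kb upstream had 7.28 and 1.82. An intronic region 21.8 kb into the gene had 5.51 and 0.893, and an exonic one 25.2 kb into it had 1.07 and 0.653. Starts of its neighbours Rpsa, a ribosomal protein gene, and Slc25a38, a mitochondrial carrier gene, held shared regions with 6.21 and 2.45, and with up to 6 and 2.07. Both strong Mobp regions and the stronger region upstream of Cldn11 hold the letters CCA, AG and GGC, each parted by 2 bases of any kind, of a CTCF site within footprint bases. CTCF is the factor that bounds chromatin loops, and these letters were added after the values had been seen. Only regions with these letters are printed below, on the plus strand, with footprint bases of either library in capitals.
Mobp, downstream, chr9:120191501-120191700: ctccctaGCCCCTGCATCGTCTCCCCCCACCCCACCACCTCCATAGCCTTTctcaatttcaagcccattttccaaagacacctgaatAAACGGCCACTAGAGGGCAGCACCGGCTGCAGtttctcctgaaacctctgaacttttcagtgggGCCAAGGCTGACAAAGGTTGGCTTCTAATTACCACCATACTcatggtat
Mobp, upstream, chr9:120140741-120140940: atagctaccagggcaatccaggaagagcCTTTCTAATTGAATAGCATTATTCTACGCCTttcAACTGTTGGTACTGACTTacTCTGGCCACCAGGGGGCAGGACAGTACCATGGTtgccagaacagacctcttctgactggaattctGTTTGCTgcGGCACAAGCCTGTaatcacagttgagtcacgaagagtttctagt
Cldn11, upstream, chr3:31139121-31139340: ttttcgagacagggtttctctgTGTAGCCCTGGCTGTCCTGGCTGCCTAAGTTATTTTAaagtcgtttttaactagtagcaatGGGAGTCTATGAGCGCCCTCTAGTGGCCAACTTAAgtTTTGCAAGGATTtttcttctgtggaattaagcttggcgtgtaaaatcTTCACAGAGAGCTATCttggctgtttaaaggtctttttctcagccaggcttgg

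Counted from the left end, the match CCACTAGAGGGC begins at base 94 of the downstream Mobp region and CCACCAGGGGGC at base 88 of the upstream one. In the Cldn11 region the match is on the minus strand and reads GCCCTCTAGTGG on the printed strand from base 98. In all, 10 of the 25 distal regions held CTCF letters in their central 200 bp, against 26% of all distal regions. Because the letters were chosen after these regions had been seen, this count is descriptive and no enrichment is drawn from it. Distal regions with these letters had median signals of 3.65 and 1.01 (n = 5693) and those without 1.57 and 0.81 (n = 16211). The members' distal regions had 5.39 and 1.22 with the letters (n = 10) and 3.7 and 1.2 without (n = 15), so those without them also lay above the general median. The MYRF letters CTGGCAC were in 0 of the 25, against 6.53%, CAGCTG in 1, against 17.6%, and ACAAAG and ACAATG in 1 each, against 14.6% and 9.13%. TGANTCA was in 3, against 6.9%, GGAATG in 3, against 11.1%, and TGACGTCA in 1, the region around Aspa, against 0.507%. CCAAT and GGGCGG were in 3 each, against 24.2% and 10.6%, TATAAA in 1, against 6.8%, and the NFI site in 0, against 0.128%. A match in 1 to 3 regions of 25 is too few to set apart from these shares.

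Mbp had 3 distal regions, all in introns. The region 28.3 kb before the myelin start, between the Golli and myelin starts, had 6.1 in replicate 1 and 1.6 in replicate 2. The regions 13.3 and 14.5 kb past it had 4.25 and 1.58, and 6.85 and 1.01. Each exceeded the signal of every Mbp start in its own library.

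Mog had a region 5.24 kb upstream (chr17:37028641-37029080) with 6.33 in replicate 1 and 2.39 in replicate 2, the highest value of replicate 2 among the 25. Downstream, 13.5 kb past the gene, stood a region with 6.87 and 0.9. The other 3 shared regions around Mog lay at starts of Gabbr1, a GABA-B receptor subunit, with up to 7.41 and 2.3. Around Mag the only distal regions lay 38.9 and 39.6 kb past the gene, inside the neighbour Ffar1, with 1.63 and 0.585, and 4.84 and 1.2. Its other shared regions were at starts of neighbours: Gm4673 with 3.86 and 2.21, Usf2 with 3.58 and 1.21, and Cd22 with 4.3 and 0.825. Thus Mag had no shared region in its body or within 25 kb of it. A strict peak of replicate 1 alone lay in the body of Mag with 1.1 and recurred in the longer list of replicate 2.

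Myrf had 4 distal regions. The strongest, 17.8 kb upstream inside the neighbour Dagla, which makes an endocannabinoid, had 7.34 and 1.83. A region 3.55 kb upstream had 3.7 and 0.908, and an intronic region had 2.5 and 0.713, so the start of Myrf, with 2.75 and 1.04, lay between them in replicate 1 and above both in replicate 2. At the start of Fen1 and Tmem258, 3.97 kb past the gene, the signal was 6.18 and 2.23, and starts of Fads1, a fatty acid desaturase, had up to 4.13 and 2.24. Cnp had a region 4.16 kb upstream inside Ttc25 with 4.57 and 1.47, above its own start in both libraries. Starts of its neighbours Acly, which makes acetyl-CoA for lipid synthesis, and Nkiras2 had 6.65 and 2.51, and 7.99 and 3.06, and a region at starts of both Dnajc7 and Nkiras2 had 5.65 and 2.84.

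Fa2h had a region 1.59 kb past the gene (chr8:111343341-111343540) with 5.39 and 1.04, and a region 45.5 kb upstream with 4.71 and 1.34, each above its start. The start of its neighbour Rfwd3 had 4.31 and 2.32. Cldn11 had 2 upstream regions, at 10.6 kb with 5.26 and 1.43 and at 3.68 kb (chr3:31146046-31146240) with 2.29 and 1.31. Around Aspa the only shared region lay inside Trpv3 with 1.57 and 1.21. Ugt8a had none, and its surroundings held 2 strict peaks of replicate 1, both at its start, and 1 of replicate 2. Around the 10 genes, 38 strict peaks were found in replicate 1 only, of which 22 recurred in the longer list of replicate 2, and 6 in replicate 2 only, of which 3 recurred in that of replicate 1. The same shares over all strict peaks are not given here, so these counts are not read as a trait of the 10 genes.

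Other genes of the lineage were scored the same way, from lists that do not overlap the 10. Of 33 further myelin and mature oligodendrocyte genes, 14 (42.4%) had a start open in both libraries and 21 (63.6%) had a strict start peak in replicate 1, against 54.0% and 60.2% of all protein-coding genes. Among the 14 were Jam3 (7.19 in replicate 1 and 1.96 in replicate 2), a junction protein with the highest signal of the list in replicate 1, and Sirt2 (4.86 and 3.18), a deacetylase abundant in myelin with the highest in replicate 2. Others were Ninj2 (5.21 and 1.22), Nfasc, Qdpr, Arsg, Car2 and Omg. Opalin, named here after its values were seen, had no start peak in any list. Of 15 oligodendrocyte transcription factors, 7 were open in both (Zfp24, Yy1, Sox8, Zfp536, Tcf7l2, St18 and Myt1) and 12 in replicate 1, which is 46.7% and 80% against the same 54.0% and 60.2%. Sox10 and Nkx2-2 were the 2 of these 15 with no peak in any list, and Olig1 had 1.69 in replicate 1 and only a longer-list peak of 0.81 in replicate 2 (all 3 named after their values were seen).

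Of 16 genes of myelin lipid synthesis, 12 (75%) were open in both libraries and 14 (87.5%) in replicate 1, against 54.0% and 60.2% of all genes. They had the highest median signals of these lists, 3.92 in replicate 1 and 1.93 in replicate 2, led by Fdft1 (13.2 and 3.68), Sptlc2 (7.18 and 3.61) and Hmgcs1 (7.04 and 3.39), of which Fdft1 and Hmgcs1 act in cholesterol synthesis and Sptlc2 in that of sphingolipids. Most of these enzymes are also made by other cells. Of 9 genes of newly formed oligodendrocytes, 4 were open in both (Fyn, Rras2, Itpr2 and Tcf7l2) and 6 in replicate 1, or 44.4% and 66.7%. Joined, the 4 lists hold 72 genes, of which 36 (50%) were open in both libraries, a share near the 54.0% of all genes.

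Fewer genes with a strict start peak in replicate 2 than in replicate 1 were also found in most lists of other cell types. The fall was largest in the astrocyte list, and the precursor list had none. Of 10 astrocyte markers, 9 had a strict start peak in replicate 1 and 2 in replicate 2, and 8 were open in both longer lists, against 60.2%, 54.7% and 59.6% of all genes. Excitatory neuron markers had 9 of 10 and 8 of 10, precursor markers 5 of 8 in each, microglial markers 3 and 2 of 10, and endothelial markers 2 and 0 of 6. Of the 6 Schwann cell genes, 4 and 3 had a peak. The part of astrocyte or other cell content in the difference between the libraries was not tested.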

How the data were processed

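DNase-seq peaks, footprints and cut-rate FDRs of 2 libraries were analysed on mm10, the build given per the labels; all coordinates count from 1. The authors deposited 4 data files per library. The unit of peak strength is the signal value deposited with each peak, in whole multiples of 0.00735 in replicate 1 and 0.0075 in replicate 2, and its scaling is not stated. The cut-rate FDR is deposited per stretch of bases and listed up to 0.05 only. The deposited footprint FDR is constant at 0.01, so it does not rank the footprints. Aligner, peak caller and filters were not given in the sources used here. Depth is unknown, and precision is limited by having 2 libraries.

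Starts came from GENCODE M21 and sequences from GRCm38, which is mm10: all 32851 RefSeq promoter entries equalled the genome at their coordinates. A peak, of the list with fewer rows in each library, was assigned to a start when it overlapped 500 bp either side by 1 bp or more. Distal regions lie outside these windows of all protein-coding and long noncoding RNA genes. Python 3.11.15, numpy 2.4.6, pandas 2.3.3, pysam 0.24.0 and matplotlib 3.10.9 were used, and the counting steps were checked on simulated data. No test was made, since both libraries form 1 group. All 10 genes are named, with up to 2 shared regions around each that are highest by mean signal rank, and further ones, the protein-coding neighbours whose starts hold a shared region, and of the other lists up to 8 genes open in both libraries by mean signal. The genes and lists were chosen with earlier results of these data known. Alternatives covered the peak list, window, annotated starts, overlap, peak strength, FDR threshold, flank and each library left out.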

Additional observations from a re-analysis of the deposited data

How the results depend on the processing

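The count of member starts open in both libraries, 7, was 19 with the longer lists, 3 with the stronger 50% of each list, 23 with a peak in either library, and 7 to 23 when a library was left out. The 3 genes were 6, 1 and 6, and 3 to 6. In each of these leave-one-out ranges the higher value comes from replicate 1 alone. Windows of 250 or 1000 bp, the peak middle, and basic or protein-coding transcripts gave 5 to 9 starts and 3 genes. Basic transcripts have 29 of the members' starts and protein-coding ones 34. For these settings, the stronger 50% and either library, the shares of all starts and genes are not given. Those counts therefore describe the members alone. The 5 shared footprints compare with 16 to 24 footprints in a library alone, which need no partner, and with 7 at an overlap of 1 bp. Starts passing the FDR threshold in both libraries, 7 at 0.001, were 19 at 0.01, 19 at 0.05, and 7 to 23 with a library left out. The 46 regions around the genes were 9 in gene bodies alone, 78 with the longer lists, and 52 to 85 peaks of a library alone. Apart from the settings' own construction, the cause of these shifts was not tested. The count of 36 open genes in the other lists and the median start signals stayed within 1.5 times. No paired analysis was possible because both libraries belong to 1 group. Without tag counts, a start with no listed base cannot be told from a start below the detection limit.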
